A study of Mus musculus with 69 samples.

Results

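The amino acid and peptide transporters described here are the measured genes of the Slc1a, Slc3a, Slc6a, Slc7a, Slc15a, Slc36a and Slc38a families in the kidneys of NZB/W mice. Of 24538 gene symbols, 68 carried one of these family names, and the 58 with at least 100 reads summed over the original libraries were kept. The 10 others fell below that total, among them Slc15a5, Slc36a1os, Slc36a3, Slc38a5, Slc38a8, Slc6a11, Slc6a21, Slc6a5 and Slc7a14. Nearest the limit, Slc6a2 was kept with 196 reads over 65 libraries and Slc7a14 was left out with 78. The 58 members comprised 7 Slc1a, 2 Slc3a, 18 Slc6a, 15 Slc7a, 4 Slc15a, 3 Slc36a and 9 Slc38a symbols. Slc6a19os and Slc7a6os carry a family name but are not carriers.

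The proximal tubule takes filtered amino acids and small peptides back into the body. Sodium- or proton-coupled carriers on the brush border bring them into the cell, brush border peptidases release amino acids from peptides, and exchangers on the basolateral side pass them on to the blood. Several of the carriers work as pairs, in which a heavy subunit (rBAT from Slc3a1 or 4F2hc from Slc3a2) holds a light subunit of the Slc7a family at the membrane. Almost all cells also keep a separate set of plasma membrane carriers for their own supply and a set in lysosomes, and several genes of the supply set are known targets of ATF4, the transcription factor of the amino acid response. By these roles, 11 members were brush border (apical) carriers of the proximal tubule, 3 were basolateral carriers of the proximal tubule, 12 were ubiquitous supply carriers, 5 were endolysosomal, 4 carried osmolytes, creatine or GABA, 11 formed a group named for monoamines, glycine and glial glutamate, and 12 were other members. That group also held the neutral amino acid carriers Slc6a15 and Slc6a17, the proline carrier Slc6a7 and the glutamate carriers Slc1a6 (EAAT4) and Slc1a7 (EAAT5).

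Kidney RNA was sequenced from female NZB/W F1 mice, a strain that develops lupus nephritis with age and which all groups shared. The groups were 30 young mice aged 12 weeks, 27 nephritic mice aged 30 to 45 weeks, and 8 mice aged 36 to 50 weeks that were in remission after cyclophosphamide, CTLA4Ig and anti-CD40L, killed 8 weeks after induction. Young mice were taken at zeitgeber times (ZT, hours after lights on in a 12 h light and 12 h dark cycle) ZT0, 4, 8, 12, 16 and 20, with 7, 4, 4, 7, 4 and 4 mice, and nephritic mice at the same times with 7, 4, 4, 6, 3 and 3 mice. Remission mice were taken only at ZT0 and ZT12, with 4 mice each. Nephritis and age differed together between the nephritic and young mice and cannot be told apart. The labels name no sequencing run. All original young and nephritic libraries were taken as sharing a run. All remission libraries, with repeat libraries of 2 young and 2 nephritic mice, were taken as a separate run.

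Library depth ranged from 25257530 to 35744843 counts in young mice and from 26596500 to 48075977 in nephritic mice, against 13311278 to 21849912 in remission mice. Levels are given as CPM, a gene's counts per 1e+06 counts of its library with TMM scaling, and levels of different genes are compared per kilobase of exon. A ratio of the CPM of a pair of genes is not corrected for length and is compared only between groups of mice. The study lists 2 RNA-seq sets, and the libraries were assigned to them from the style of their titles, since the labels name no set. Set 1 as assigned held 6 young and 5 nephritic mice at ZT0 and ZT12, and its nephritic mice had a median of 303 CPM of the tubular injury gene Lcn2 against 56.2 CPM in the nephritic mice of Set 2. Several libraries stood apart. In 3 young libraries, 1 at ZT8 and 2 at ZT16, the hepatocyte gene Alb reached 8800 CPM or more, against at most 1930 CPM in the other young libraries. In 8 young libraries and 1 nephritic library, the adrenal cortex gene Cyp11b1 lay at 8.89 CPM or more, against at most 0.562 CPM in the other young and 1.28 CPM in the other nephritic libraries. The young ones included ZT16RU, ZT16LL and ZT160 at ZT16 and ZT12RL, ZT12LU and ZT120 at ZT12. ZT16RU and ZT16LL were also among those with liver RNA. Leaving out the libraries with adrenal RNA kept ZT16LU as the only young mouse at ZT16. One remission mouse labelled ZT12 had 27 CPM of the clock gene Arntl and 7.91 CPM of its counterphase gene Dbp, in the ranges of the ZT0 remission mice (23 to 28.8 CPM and 6.91 to 15.5 CPM), while the other ZT12 remission mice had 3.19 to 4.89 CPM of Arntl. The remission counts changed by at most 1 member in any direction when this mouse was left out, and the call of Slc6a20b against young mice was among those lost. For some of the results that changed without the libraries with liver or adrenal RNA, the value or the count without them is given.

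In the young kidney the brush border carriers led the families. Slc6a18, which encodes the neutral amino acid carrier B0AT3, had the highest median level per length at 406 CPM per kilobase of exon. The heavy subunit Slc3a1 followed at 155 and its light subunit Slc7a9, with which it forms the cystine and dibasic amino acid carrier, lay at 69.6 on the same scale. The other heavy subunit, Slc3a2, was at 77.3 CPM per kilobase, and its basolateral partners Slc7a7 (y+LAT1, the cationic amino acid exit carrier) and Slc7a8 (LAT2, a neutral amino acid exchanger) at 72.3 and 40.2. Slc6a19, the main neutral amino acid carrier B0AT1, lay at 53.5, the proline carriers Slc6a20b and Slc6a20a at 32.5 and 7.03, the glutamate and aspartate carrier Slc1a1 at 30.6, the high-affinity oligopeptide carrier Slc15a2 (PEPT2) at 24.0 and the glutamine carrier Slc38a3 at 11.3 CPM per kilobase. Outside the proximal roles, the creatine carrier Slc6a8 (57.3), the light-chain-like Slc7a12 (55.2) and the GABA carrier Slc6a13 (53.9) reached similar levels per length. Slc6a20a and Slc6a20b are closely related copies, and Slc6a19os overlaps Slc6a19 on the opposite strand. The strand setting of the counting is not given in the sources used here, and the split of reads within these pairs is uncertain. Slc7a6os lies on the strand opposite Slc7a6 but does not overlap it in the annotation.

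Slc6a19 (chr13:73679745-73704865, minus strand, GRCm38) and Slc7a7 (chr14:54369442-54417780, minus strand) are the apical and the basolateral marker of the module, and their promoters are shown because both genes peaked at ZT8 in young mice. Slc7a10, the small neutral amino acid exchanger Asc-1, is shown because its daily amplitude was among the 3 largest of the members. The windows run from 250 bases before to 50 bases after a RefSeq transcription start on GRCm38.p6, each read 5′ to 3′ on its gene's strand. A window was found for 41 of the 58 members, and of the members with the 3 largest amplitudes it was found for Slc7a10. Both strands were searched for CACGTG (the E-box bound by the clock factors), TTACGTAA and TTATGTAA (D-box forms), AGGTCA (the core of the ROR and REV-ERB element) and TGATGNAA (the element bound by ATF4 with C/EBP partners). Capitals mark matches.
Slc6a19 chr13:73692587-73692886, minus strand: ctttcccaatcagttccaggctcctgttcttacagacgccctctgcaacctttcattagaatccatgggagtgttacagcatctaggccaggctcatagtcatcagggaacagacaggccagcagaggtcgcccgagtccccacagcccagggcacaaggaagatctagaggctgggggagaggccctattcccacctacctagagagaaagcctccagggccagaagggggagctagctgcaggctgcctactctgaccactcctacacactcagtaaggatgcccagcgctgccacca
Slc7a7 chr14:54417895-54418194, minus strand: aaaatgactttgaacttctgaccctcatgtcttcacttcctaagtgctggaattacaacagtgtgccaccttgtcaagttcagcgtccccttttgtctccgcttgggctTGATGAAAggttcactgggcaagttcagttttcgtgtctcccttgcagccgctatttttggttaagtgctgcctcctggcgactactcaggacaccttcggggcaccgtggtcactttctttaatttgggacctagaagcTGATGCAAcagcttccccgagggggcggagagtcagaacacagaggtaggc
Slc7a10 chr7:35186135-35186434, plus strand: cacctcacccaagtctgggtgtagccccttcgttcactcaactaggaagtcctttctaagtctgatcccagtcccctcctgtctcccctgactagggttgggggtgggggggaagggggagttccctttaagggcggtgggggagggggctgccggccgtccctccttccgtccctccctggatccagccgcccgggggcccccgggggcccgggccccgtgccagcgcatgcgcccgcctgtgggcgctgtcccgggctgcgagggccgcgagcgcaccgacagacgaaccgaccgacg

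The Slc6a19 and Slc7a10 windows held none of the 5 motifs. The Slc6a19 window lies inside the gene's span and not at its outer 5′ end at chr13:73704865, which was not searched. This Slc7a7 window held TGATGNAA at the 2 places in capitals. It belongs to 1 of several Slc7a7 start sites in the annotation, and it was picked after the matches were seen. Over all 32851 promoter windows, 3.97% held TGATGNAA, and 3 of the 41 members had it in at least 1 of their windows (Slc1a4, Slc7a11 and Slc7a7). A member can have several windows, so the share of windows and the count of members are not in the same unit. Counted in the same way, the E-box CACGTG was in 7.15% of all windows and in 6 members, AGGTCA in 16.3% and in 8 members, and TTACGTAA and TTATGTAA in 0.119% and 0.938% of windows and in 0 members.

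The first comparison asks how carrier RNA differed between nephritic and young kidneys. The proximal carriers were lower in nephritic mice and several supply carriers were higher. Of 17521 genes tested, 62.1% passed an adjusted p of 0.05 in edgeR's quasi-likelihood test with Benjamini-Hochberg adjustment (28.1% higher and 33.9% lower). Among the 58 members, 13 were higher and 25 lower, with a median log2 change of -0.21 against -0.03 over all genes. Of the 14 members with a proximal role, 12 were lower and 0 higher, with a median log2 change of -0.51, while the 44 other members split into 13 higher and 13 lower.

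Slc6a19 fell most among the abundant carriers. Its level was 145, 268 and 622 CPM in the lowest, median and highest young mouse, and 23.4, 144 and 385 CPM in nephritic mice. The groups overlapped, but 14 of 27 nephritic mice lay below the lowest young mouse (log2 change -1.07, SE 0.14, edgeR adjusted p 5.98e-09). The proline carrier Slc6a20b went from 222, 278 and 349 CPM in young to 33.8, 174 and 260 CPM in nephritic mice, 21 of which lay below every young mouse (log2 change -0.87, SE 0.14, edgeR adjusted p 7.01e-07). Its relative Slc6a20a went from 17.2, 28.7 and 58.9 CPM to 9.44, 21 and 37.1 CPM (log2 change -0.45, SE 0.11, edgeR adjusted p 0.000582). Slc6a18, the most abundant of the family, showed a smaller shift from 1227, 1794 and 2379 CPM to 741.2, 1360 and 2009 CPM (log2 change -0.37, SE 0.08, edgeR adjusted p 3.79e-05).

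Both subunits of the cystine and dibasic carrier were lower. Slc3a1 had 246, 352 and 802 CPM in the lowest, median and highest young mouse and 62.3, 268 and 484 CPM in nephritic mice (log2 change -0.72, SE 0.16, edgeR adjusted p 0.000101), and 12 nephritic mice lay below all young mice. Slc7a9 had 149, 186 and 258 CPM in young and 46, 143 and 197 CPM in nephritic mice (log2 change -0.59, SE 0.09, edgeR adjusted p 2.73e-07), with 16 nephritic mice below all young mice. The ratio of Slc7a9 to Slc3a1 CPM had a median of 0.506 in young and 0.525 in nephritic mice, in overlapping ranges of 0.239 to 0.686 and 0.3 to 0.947. In Set 1 at ZT0 and ZT12 the medians were 0.278 and 0.601, without overlap (0.239 to 0.289 and 0.414 to 0.737). In Set 2 at these times they were 0.505 and 0.418, in overlapping ranges (0.357 to 0.6 and 0.3 to 0.781). The ratio was not tested. The second light subunit that pairs with rBAT, Slc7a13, was scarce at 0.825, 1.76 and 8.93 CPM in young and 0.211, 0.975 and 4.84 CPM in nephritic mice (log2 change -0.97, SE 0.26, edgeR adjusted p 0.0012).

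Glutamate and peptide carriers of the brush border shifted less. Slc1a1 went from 206, 252 and 334 CPM to 80, 203 and 300 CPM (log2 change -0.44, SE 0.09, edgeR adjusted p 3.15e-05). Slc15a2 went from 128, 176 and 241 CPM to 55.2, 134 and 202 CPM (log2 change -0.42, SE 0.09, edgeR adjusted p 9.17e-05). In both, the upper part of the nephritic range lay within the young range. The low-affinity peptide carrier Slc15a1 had medians of 0.723 CPM in young and 0.711 CPM in nephritic mice (log2 change -0.22, edgeR adjusted p 0.159), and the glycine and proline carrier Slc36a2 had 4.06 and 2.73 CPM (log2 change -0.33, edgeR adjusted p 0.229). These were the 2 proximal members that did not pass the test.

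On the basolateral side, Slc7a8 had 112, 201 and 336 CPM in young and 50.4, 130 and 250 CPM in nephritic mice (log2 change -0.58, SE 0.08, edgeR adjusted p 9.98e-09). Slc7a7 had 105, 240 and 389 CPM in young and 95.4, 183 and 260 CPM in nephritic mice, and only 2 nephritic mice lay below the lowest young mouse (log2 change -0.42, SE 0.08, edgeR adjusted p 2.49e-05). Slc38a3, which supplies glutamine for ammonia formation, had 36, 59.4 and 329 CPM in young and 15.7, 47.6 and 74.3 CPM in nephritic mice (log2 change -0.64, SE 0.17, edgeR adjusted p 0.00116). The high young end came from the 3 libraries with liver RNA, and without them the log2 change was -0.31 with an edgeR adjusted p of 0.0177. The shared heavy subunit Slc3a2 fell by 0.21 on the log2 scale (edgeR adjusted p 0.000959).

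**Figure D1:**
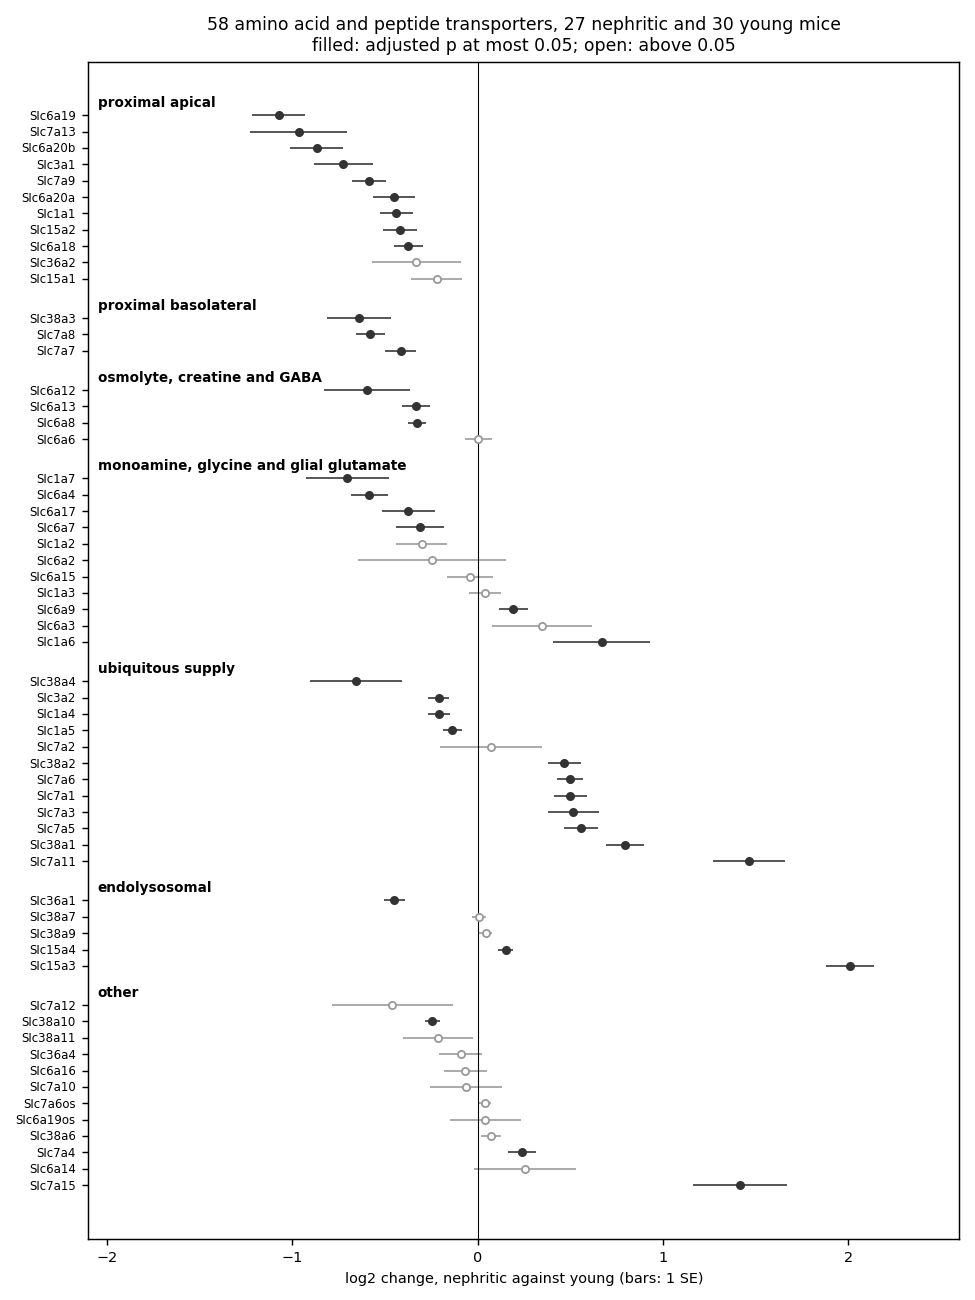
Log2 change of each of the 58 members between nephritic (n = 27) and young (n = 30) mice, grouped by role, with bars of 1 SE and filled points for members past an adjusted p of 0.05 in edgeR. In the proximal roles 12 of 14 members are lower and 0 higher, and in the ubiquitous supply role 7 of 12 are higher.

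The genes around the carriers moved the same way. Of 15 transport partners and brush border peptidases, 14 were lower and 0 higher (median log2 change -0.47), among them the peptidases Xpnpep2 (-0.88), Mep1b (-0.83) and Anpep (-0.75). Tmem27, whose product carries B0AT carriers to the membrane, fell by 0.47 on the log2 scale. General proximal tubule markers moved as well. All 14 tested were lower (median log2 change -0.75), and their summed level was 17030, 22400 and 28090 CPM in the lowest, median and highest young mouse against 3675, 14150 and 21800 CPM in nephritic mice. In bulk kidney RNA, fewer proximal tubule cells and less carrier RNA per cell cannot be told apart. When the mean log2 level of these markers was added as a covariate, 19.5% of all genes passed, against 62.1% without it. Of the members, 4 were then higher (Slc15a3, Slc7a11, Slc38a1 and Slc6a17) and 5 lower (Slc7a2, Slc1a2, Slc38a6, Slc36a1 and Slc6a19). Slc6a19 was the 1 proximal member still lower (log2 change -0.36, edgeR adjusted p 0.0398), and Slc6a17, lower without the covariate, was higher with it (0.35, edgeR adjusted p 0.0442).

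The log2 changes of the proximal carriers were larger in size in Set 1, whose nephritic mice had more Lcn2 at the median. Young mice also differed between the sets, with a median ratio of Slc7a9 to Slc3a1 CPM at ZT0 and ZT12 of 0.278 in Set 1 and 0.505 in Set 2. Set 1 held only ZT0 and ZT12. The difference between the sets in these log2 changes was not tested. Within Set 2 alone the log2 changes were -0.85 for Slc6a19, -0.60 for Slc6a20b, -0.34 for Slc3a1, -0.38 for Slc7a9, -0.23 for Slc1a1, -0.20 for Slc15a2, -0.21 for Slc6a18, -0.45 for Slc7a8, -0.30 for Slc7a7 and -0.47 for Slc38a3. Within Set 1 alone they were -2.02, -2.12, -2.58, -1.42, -1.26, -1.22, -0.93, -0.99, -0.76 and -1.21 in the same order. The direction was the same in both sets for these genes. In Set 2 alone 10 proximal members were lower, and Slc7a13 (-0.55, edgeR adjusted p 0.0653) and Slc6a20a (-0.22, edgeR adjusted p 0.0718) did not pass. Of all 38 calls, 30 were kept in Set 2 alone, where 55.9% of all genes passed. Slc1a4, Slc1a6, Slc38a4, Slc6a17, Slc6a20a, Slc6a9, Slc7a13 and Slc7a4 were not kept. Without the libraries with adrenal RNA 12 proximal members were still lower, and the calls of Slc1a5, Slc38a4, Slc6a12, Slc6a17 and Slc6a7 were lost. Without those with liver RNA 12 proximal members were also lower, Slc38a4, Slc6a12 and Slc6a7 were lost and Slc7a2 passed as higher. Slc7a12 differed between the sets in young mice, with 377, 458 and 480 CPM at ZT0 in Set 1 and 47.7 to 95.7 CPM at ZT0 in Set 2, and its log2 change was -3.59 within Set 1 and 0.18 within Set 2.

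Of the 12 ubiquitous supply carriers, 7 were higher and 4 lower in nephritic mice, with a median log2 change of 0.48. Slc7a11, the light subunit of the cystine and glutamate exchanger xCT, was scarce, with 0.0659, 0.254 and 0.782 CPM in the lowest, median and highest young mouse and 0.197, 0.669 and 2.35 CPM in nephritic mice (log2 change 1.46, SE 0.19, edgeR adjusted p 5.32e-09). Slc38a1, a glutamine carrier of system A, rose from 2.64, 4.23 and 6.95 CPM to 3.81, 6.98 and 25.1 CPM (log2 change 0.80, SE 0.10, edgeR adjusted p 3.47e-09). The groups overlapped in both genes. Slc7a5, the light subunit LAT1 of the large neutral amino acid exchanger, had 3.86, 5.6 and 10.4 CPM in young and 5.95, 8.78 and 16.7 CPM in nephritic mice (log2 change 0.56, SE 0.09, edgeR adjusted p 8.57e-07). The cationic amino acid carrier Slc7a1 had 9.12, 16.6 and 22.1 CPM in young and 15.4, 22.1 and 45.4 CPM in nephritic mice (log2 change 0.50, SE 0.09, edgeR adjusted p 1.99e-06), and the system A carrier Slc38a2 had 47.3, 101 and 154 CPM in young and 69, 120 and 231 CPM in nephritic mice (log2 change 0.47, SE 0.09, edgeR adjusted p 1.09e-05). Slc7a3 and Slc7a6 rose by 0.52 and 0.50 on the log2 scale. The exchangers Slc1a4 and Slc1a5 fell by 0.21 and 0.14, and Slc38a4 fell by 0.66. Without the 3 libraries with liver RNA the log2 change of Slc38a4 was -0.11 (edgeR adjusted p 0.473).

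Supply carriers were also set beside their relatives of the proximal tubule, as a ratio of CPM within each mouse and with no test. Slc7a5 had a median of 2.75% of the CPM of Slc7a8 in young mice and 5.74% in nephritic mice. Slc7a6 (y+LAT2) had a median of 4.14% of the CPM of its relative Slc7a7 in young and 6.62% in nephritic mice. The ranges overlapped between the groups for both, at 1.16% to 8.39% against 2.48% to 31.3% and 1.73% to 11.4% against 3.41% to 24.8%. These shares are not corrected for transcript length, which is the same within a gene across groups.

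Of 16 genes of the amino acid response, 11 were higher and 3 lower, with a median log2 change of 0.46. The largest changes were in the stress response factors Atf3 (1.69) and Nupr1 (0.79) and in asparagine synthetase Asns (0.97). The 3 lower genes were Shmt2 and Psph of serine and glycine metabolism (-0.62 and -0.22) and the lipoprotein receptor Vldlr (-0.57). This list was chosen with results of these samples known.

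Among endolysosomal members, 2 were higher and 1 lower. Slc15a3 (PHT2), a histidine and peptide carrier that immune cells express, had 0.924, 2.16 and 3.47 CPM in young and 4.3, 7.77 and 19.8 CPM in nephritic mice (log2 change 2.01, SE 0.13, edgeR adjusted p 3.82e-19). All 27 nephritic mice lay above the highest young mouse. Its log2 change was 1.97 in Set 2 and 2.30 in Set 1. Slc15a4 rose by 0.15 on the log2 scale (edgeR adjusted p 0.000614) and the lysosomal carrier Slc36a1 fell by 0.45 (edgeR adjusted p 1.12e-09). All 13 leukocyte markers were higher, with summed levels of 111.5, 184.1 and 237.8 CPM in the lowest, median and highest young mouse and 265.5, 767.2 and 4105 CPM in nephritic mice, and their part in the Slc15a3 result was not tested.

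Of the 4 osmolyte, creatine and GABA carriers, 3 were lower and 0 higher. The creatine carrier Slc6a8 fell by 0.33 on the log2 scale (SE 0.05), the GABA carrier Slc6a13 by 0.33 (SE 0.07) and the betaine carrier Slc6a12 by 0.60 (SE 0.23), while the taurine carrier Slc6a6 had a log2 change of 0.01 (SE 0.07, edgeR adjusted p 0.957). Of the 11 members in the monoamine, glycine and glial glutamate group, 2 were higher (Slc1a6 and the glycine carrier Slc6a9) and 4 lower. The serotonin carrier Slc6a4 fell by 0.58 on the log2 scale (edgeR adjusted p 1.93e-06) from a median of 22.7 CPM in young to 16.1 CPM in nephritic mice. Among the 12 other members, 2 were higher and 1 lower. Slc7a15, a light-chain-like member, was near the detection limit at 0, 0.131 and 0.281 CPM in young and 0.0656, 0.268 and 1.54 CPM in nephritic mice (log2 change 1.42, SE 0.25, edgeR adjusted p 3.76e-06).

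The time series asks which carriers followed the time of day. In young mice 36 of 55 tested members differed between time points, against 39.8% of all genes tested, and 8 of 14 proximal members did. Of the 36, 18 had their highest mean at ZT8 or ZT12 (50% against 31.6% of all 6583 genes that differed between time points), and their median amplitude of a fitted 24 h cosine was 0.34 on the log2 scale against 0.19 over all such genes. The highest mean fell at ZT4 for 6 members, at ZT8 for 9, at ZT12 for 9, at ZT16 for 4, at ZT20 for 7 and at ZT0 for Slc15a4. Of the general proximal tubule markers 10 of 14 also differed between time points, as did 10 of 15 transport partners and peptidases. Among these markers Slc34a1, Slc5a12, Slc22a6 and Acsm2 were highest at ZT8. Slc13a3, Slc27a2, Aqp1 and Keg1 were highest at ZT12, Slc5a2 at ZT4 and Gatm at ZT0.

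Among the abundant proximal carriers Slc6a19 had the largest amplitude. The 4 young mice at ZT8 had 519, 534, 539 and 622 CPM and the 4 at ZT16 had 145, 200, 209 and 228 CPM, so that every ZT8 mouse was above every ZT16 mouse. The fitted means differed 2.86-fold, with an amplitude of 0.69 (SE 0.09) on the log2 scale and an edgeR adjusted p over the 6 time points of 9.09e-06. Slc7a7 followed with 281, 309, 330 and 389 CPM at ZT8 and 123, 134, 135 and 240 CPM at ZT20 (amplitude 0.57, SE 0.08, edgeR adjusted p 0.00018), without overlap. The exchanger Slc7a8 and the heavy subunit it pairs with had their highest mean earlier, at ZT4. Slc7a8 had 252, 268, 295 and 302 CPM at ZT4 and 112 to 144 CPM at ZT12 (median 132, amplitude 0.52, SE 0.05, edgeR adjusted p 1.07e-07), and the heavy subunit Slc3a2 had 339, 365, 399 and 418 CPM at ZT4 and 190, 229, 239 and 240 CPM at ZT16 (amplitude 0.41, SE 0.04, edgeR adjusted p 1.04e-06).

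Brush border carriers did not share one peak. Slc6a18 was lowest at ZT8 with 1227, 1463, 1522 and 1593 CPM, when Slc6a19 was highest, and highest at ZT20 with 1942, 1967, 2190 and 2324 CPM (edgeR adjusted p 0.00113). Slc15a2 had 129, 131, 133 and 148 CPM at ZT8 and 174, 199, 208 and 215 CPM at ZT20 (edgeR adjusted p 0.000812). In both genes all ZT20 mice were above all ZT8 mice. Slc6a20a had 19, 19, 21.4 and 22.2 CPM at ZT4 and a lowest, median and highest level of 24.5, 42.7 and 58.9 CPM at ZT12 (edgeR adjusted p 7.01e-06), and Slc7a9 peaked at ZT8 (amplitude 0.19, SE 0.04, edgeR adjusted p 0.000235).

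Outside the proximal roles, Slc6a4 had 25.6, 31.4, 35.7 and 36.1 CPM at ZT8 and 13.9, 18.6, 21.7 and 22.5 CPM at ZT16 (edgeR adjusted p 3.51e-05). The orphan member Slc7a4 had 7.51, 8.26, 9.79 and 9.83 CPM at ZT4 and 5.58, 5.72, 5.84 and 6.63 CPM at ZT16 (edgeR adjusted p 0.000166). Neither gene had overlapping mice between these times. The glutamine exchanger Slc1a5 was highest at ZT12 with 51.3, 62.2 and 87.1 CPM in the lowest, median and highest of 7 mice (edgeR adjusted p 0.00018), and the taurine carrier Slc6a6 had 292, 340, 348 and 374 CPM at ZT4 and 409, 521 and 650 CPM at ZT12 (edgeR adjusted p 0.000214).

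**Figure D2:**
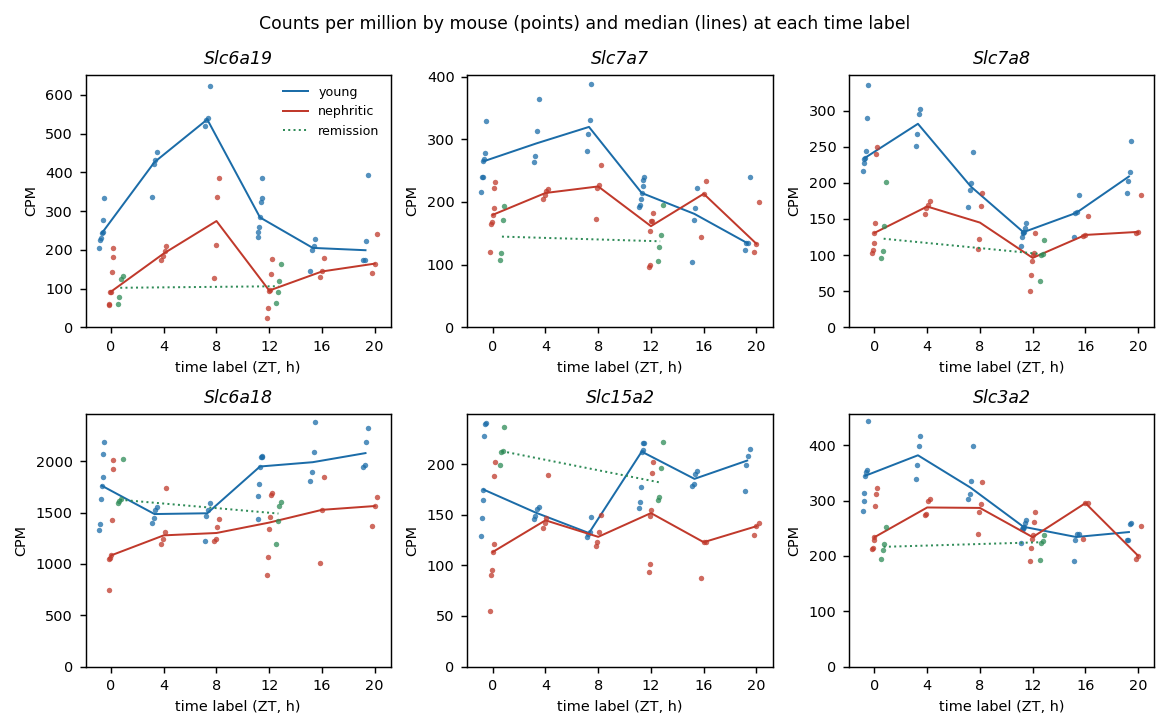
Level in CPM against zeitgeber time in hours for selected members, 1 point for each young or nephritic mouse and a line through the medians at each time, with the remission mice at ZT0 and ZT12 as a dotted line. In young mice Slc6a19 and Slc7a7 are highest at ZT8 and Slc7a8 and Slc3a2 at ZT4, and the nephritic lines are flatter for Slc6a19, Slc7a7 and Slc3a2.

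Some large daily changes moved with markers of other tissues. Slc36a2 had the largest amplitude of the members (1.24, SE 0.24), with 0.489, 1.08, 1.63 and 2.19 CPM at ZT8 and 5.06, 6.55, 7.26 and 12.5 CPM at ZT16 in young mice (edgeR adjusted p 0.000861), and Slc7a10 had an amplitude of 0.98 (SE 0.21, edgeR adjusted p 0.000206), with 0.366, 0.866, 1.04 and 1.25 CPM at ZT8 and 2.45, 2.83, 3.41 and 4.46 CPM at ZT16. The summed level of 6 adipocyte markers was 10.6 to 54.7 CPM (median 44.1) at ZT8 and 125 to 229 CPM (median 171) at ZT16. With the mean level of these markers as a covariate, the edgeR adjusted p was 0.271 for Slc36a2 and 0.192 for Slc7a10. Slc6a15, a neutral amino acid carrier best known from the brain, had 29.3, 39.5, 48.9 and 71.1 CPM at ZT8 and 111, 122, 142 and 178 CPM at ZT16 (amplitude 0.61, SE 0.16, edgeR adjusted p 0.00165), and had an edgeR adjusted p of 0.0137 with that covariate and of 0.136 without the libraries with adrenal RNA.

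In the 3 young libraries with liver RNA, Slc38a4 stood at 126, 68.6 and 62.6 CPM against 4.61 to 18.9 CPM in the other 27 young mice, and the cationic carrier Slc7a2 at 48.9, 15.7 and 12.8 CPM against 1.56 to 6.54 CPM. The glutamate carrier Slc1a2 had 17.7, 18.4 and 16.6 CPM there against 3.25 to 5.46 CPM, and Slc38a3 had 329, 175 and 168 CPM against 36 to 87 CPM. Without these libraries the edgeR adjusted p over time in young mice was 0.27 for Slc38a4, 0.321 for Slc7a2 and 0.229 for Slc1a2. In that fit 34 members and 31.2% of all genes passed. Without the libraries with adrenal RNA only ZT16LU was left among the young mice at ZT16, so no count over time is given.

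**Figure D3:**
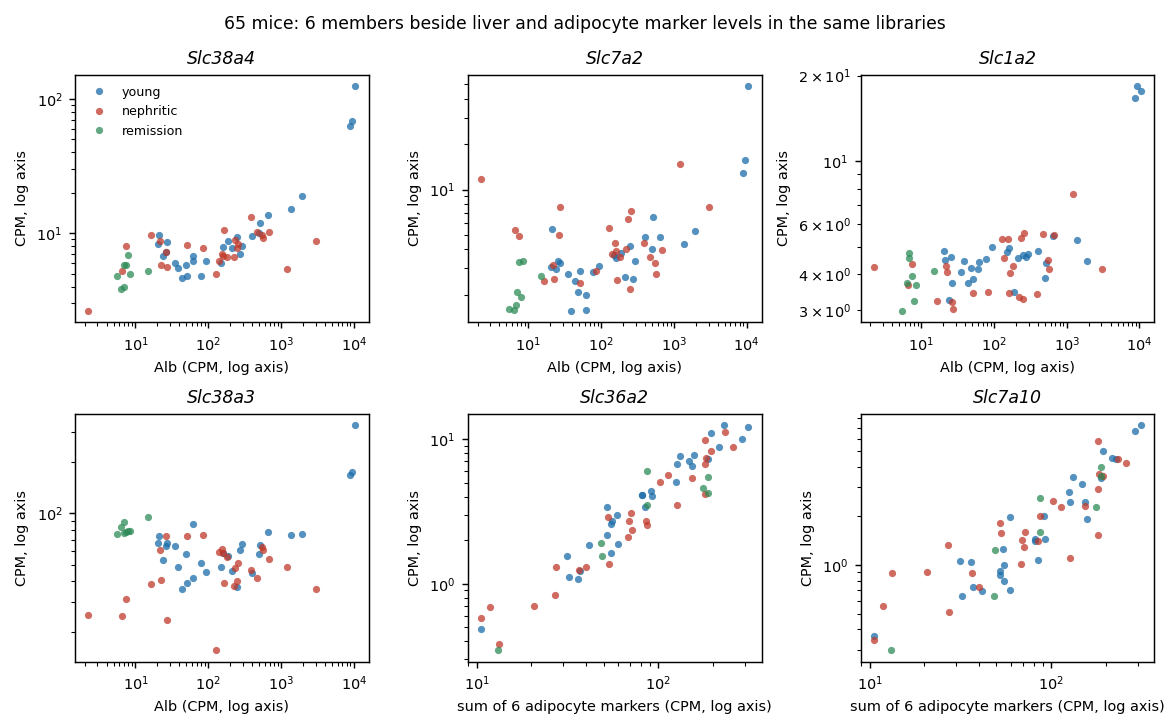
Level in CPM of 6 members (vertical log axes) against Alb or the sum of 6 adipocyte markers in CPM in the same library (horizontal log axes), 1 point for each of the 65 mice, coloured by group. The 3 young libraries with at least 8800 CPM of Alb hold the highest levels of Slc38a4, Slc1a2 and Slc38a3, and Slc36a2 and Slc7a10 rise along the adipocyte axis.

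In nephritic mice 9 of 57 members differed between time points, against 21.6% of all genes. The count was 15 by DESeq2, against 33.5% of all genes, and 3 with a fitted cosine, against 2.15%. It was 5 with the adipocyte covariate, against 18.4%, and 5 without the mouse RX7LU. Of the 9, 6 also did in young mice: Slc7a8, Slc36a2, Slc7a10, Slc6a15, Slc6a6 and Slc7a12. Slc1a4, Slc38a1 and Slc7a11 passed in nephritic mice and not in young mice. Slc7a8 kept a span from 157, 165, 169 and 174 CPM at ZT4 down to 50.4 to 130 CPM at ZT12 (amplitude 0.36, SE 0.09, edgeR adjusted p 0.0429). For Slc6a19 the nephritic mice at ZT8 ranged from 127 to 385 CPM and those at ZT16 had 130, 144 and 178 CPM, in overlapping ranges (amplitude 0.33, SE 0.20, edgeR adjusted p 0.141). Slc7a7 had an amplitude of 0.24 (SE 0.10, edgeR adjusted p 0.128) and Slc3a2 of 0.15 (SE 0.07, edgeR adjusted p 0.218). Injury was uneven over these times. The summed proximal tubule markers of nephritic mice had medians of 14700, 18400, 13400 and 13800 CPM at ZT4, ZT8, ZT12 and ZT16. The summed injury markers had 6400, 3030, 6350 and 2270 CPM. The 50.4 CPM of Slc7a8 came from 1 of the 5 nephritic mice with the most Lcn2. The part of injury in these time courses was not tested. The nephritic calls of Slc36a2 (edgeR adjusted p 0.0132) and Slc7a10 (0.00432) went to 0.955 and 0.218 with the adipocyte covariate, while that of Slc6a15 went from 0.00847 to 0.0114.

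The amplitude was lower in nephritic than in young mice for 32 of the 36 members that differed in young mice (88.9%, against 78.5% of all such genes). Both the choice of these genes and the amplitude use the young mice, so this count is a description. In the test of a different time course between the groups, 6.27% of all genes passed and 3 members did: Slc7a2 (edgeR adjusted p 0.0225), Slc1a2 (0.0473) and Slc3a2 (0.0483). Without the 3 libraries with liver RNA, 0 members and 2.51% of all genes passed in edgeR. The edgeR adjusted p of those 3 members was then 0.287, 0.421 and 0.227 in the same order. Without the mouse CRS60 1 member passed. DESeq2 called 9 members, against 12.5% of all genes, and Set 2 alone 8, against 9.89%. The proximal members among those were Slc7a13 by DESeq2 (adjusted p 0.0172) and Slc7a13 and Slc6a20a in Set 2 alone (edgeR adjusted p 0.0455 and 0.0236). Slc6a19 and Slc7a7 were not called in any of these fits, so a difference of their time courses was not shown.

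The third set of comparisons asks where carrier RNA stood in remission. Against nephritic mice 37.5% of all genes passed (17% higher and 20.5% lower), and of 57 members 12 were higher and 10 lower. In the proximal roles 5 were higher and 0 lower. At ZT0 and ZT12, Slc3a1 had 350, 458 and 580 CPM in the lowest, median and highest remission mouse, 62.3, 200 and 484 CPM in nephritic and 294, 448 and 803 CPM in young mice (log2 change from nephritic 0.91, SE 0.30, edgeR adjusted p 0.0174). Slc1a1 had 229, 275 and 327 CPM in remission, 80, 175 and 300 CPM in nephritic and 206, 268 and 334 CPM in young mice (log2 change from nephritic 0.53, edgeR adjusted p 0.0159), and Slc15a2 had 165, 206 and 237 CPM, 55.2, 121 and 202 CPM, and 129, 195 and 241 CPM (log2 change 0.57, edgeR adjusted p 0.0118). For these 3 genes the remission mice lay within the range of all young mice at these times, whose upper part was Set 1. In Set 2 at ZT0 the ranges did not overlap for Slc3a1, with 294 to 373 CPM in young and 409 to 580 CPM in remission mice, or for Slc15a2, with 129 to 175 CPM and 199 to 237 CPM. Slc38a3 had 75.9, 79.2 and 94.5 CPM in remission and 15.7, 46.4 and 73.3 CPM in nephritic mice, without overlap (log2 change 0.75, edgeR adjusted p 0.00192), and Slc7a13 was also higher (log2 change 1.01, edgeR adjusted p 0.0234). Without the libraries with adrenal RNA, which include 1 nephritic and 4 young mice of these times, 31.1% of all genes passed. Of the members 5 were then higher, and Slc38a3 was the 1 proximal member among them (0.67, edgeR adjusted p 0.0101). The log2 changes of Slc3a1, Slc1a1, Slc15a2 and Slc7a13 were then 0.74, 0.42, 0.47 and 0.84, with edgeR adjusted p of 0.0615, 0.07, 0.0557 and 0.0805.

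Slc6a19 and the basolateral exchangers Slc7a7 and Slc7a8 did not pass the test against nephritic mice and were lower than in young mice. Of the 14 general proximal tubule markers, 8 were also lower than in young mice and 0 higher (median log2 change -0.66), among them Slc5a12 (-1.69), Slc5a2 (-1.38) and Slc34a1 (-1.14), as were 7 of 15 transport partners and peptidases, and their part in the carrier result was not tested. Slc6a19 had 60.2, 106 and 163 CPM in remission, 23.4, 94.3 and 205 CPM in nephritic and 204, 252 and 385 CPM in young mice at ZT0 and ZT12. Every remission mouse was below every young mouse (log2 change -1.55, edgeR adjusted p 5e-05), and the log2 change from nephritic mice was -0.15 (edgeR adjusted p 0.696). Slc7a7 had 105, 137 and 195 CPM in remission and 192, 238 and 328 CPM in young mice (log2 change -0.75, edgeR adjusted p 5.62e-05), and -0.19 from nephritic mice (edgeR adjusted p 0.264). Against young mice, 41.6% of all genes passed (21.2% higher and 20.4% lower), and of the members 7 were higher and 13 lower (13 and 12 with Set 2 alone). Slc7a8 (-0.77, edgeR adjusted p 0.000747), Slc7a9 (-0.72, 0.00411) and Slc6a20b (-0.78, 0.0405) were the other proximal members below young mice, and 0 proximal members were above, or 1 with Set 2 alone (Slc38a3, 0.62, edgeR adjusted p 0.000626). The remission mice enter both comparisons, so the values are set side by side and not as independent results.

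Slc7a9 had 96.4, 114 and 156 CPM in remission, every mouse below the young median of 181 CPM at the same times, while Slc3a1 had 350 to 580 CPM. The ratio of Slc7a9 to Slc3a1 CPM at ZT0 and ZT12 was 0.224 to 0.344 (median 0.248) in remission mice. In young mice it was 0.357 to 0.6 (median 0.505) in Set 2, above every remission mouse, and 0.239 to 0.289 (median 0.278) in Set 1, within the remission range. The ratio thus differed between the sets in young mice too, and it was examined after the values were seen and was not tested.

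**Figure D4:**
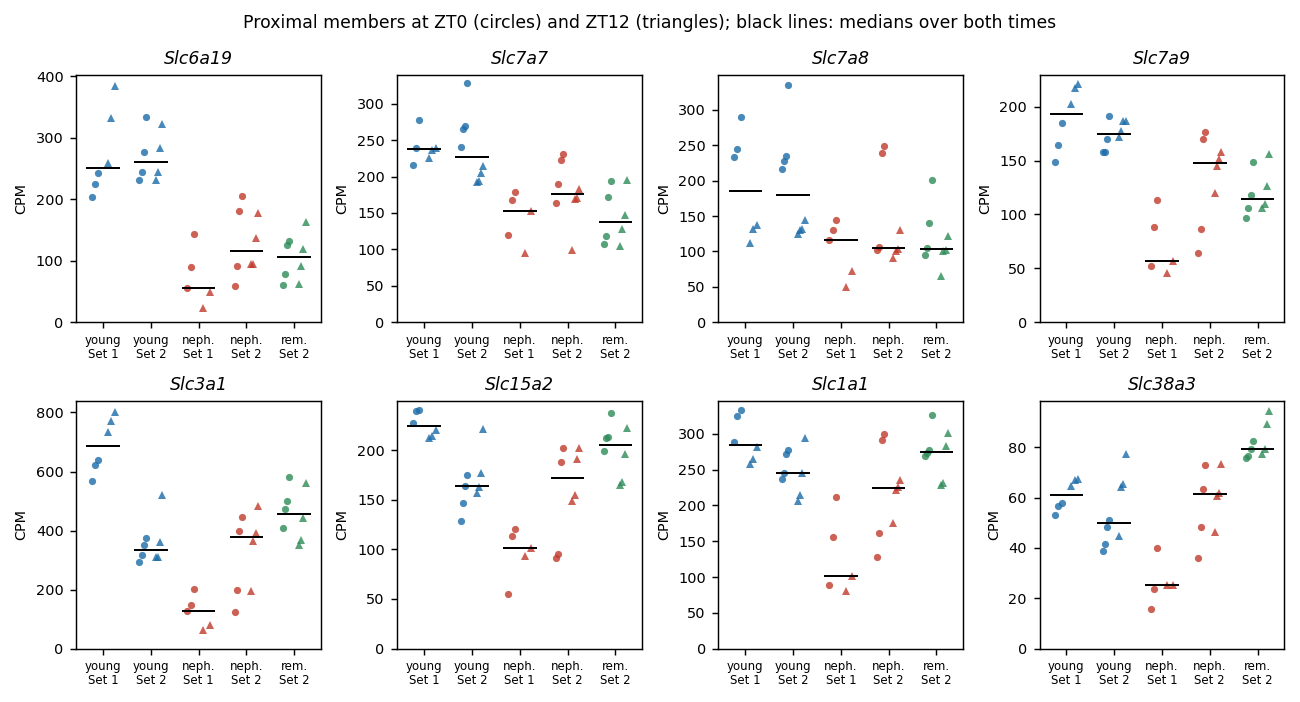
Level in CPM at ZT0 and ZT12 of selected members in young, nephritic and remission mice, split by RNA-seq set, with circles for ZT0, triangles for ZT12 and black lines at the medians. Slc6a19 in remission (60.2 to 163 CPM) lies below every young mouse, while Slc3a1 in remission (350 to 580 CPM) lies at or above most young mice of Set 2 and mostly below those of Set 1.

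Set and run touch the remission results. With Set 2 alone, 7 members were higher than in nephritic mice, and 40.2% of all genes passed in either direction. The proximal members among the 7 were Slc38a3 (log2 change 0.51, edgeR adjusted p 0.00362) and Slc1a1 (0.34, edgeR adjusted p 0.0487). A covariate for the assumed sequencing run could be fitted through the repeat libraries, which are second libraries of mice already in the fit. With it, 23.6% of all genes passed, and of the members 6 were higher and 6 lower. In the proximal roles 3 were higher, Slc38a3 among them (0.74, edgeR adjusted p 0.0362). Against young mice, the run covariate left 4 members higher and 8 lower, and 13.8% of all genes passed. Slc6a19 (-1.31, edgeR adjusted p 0.00946), Slc7a7 (-0.82, edgeR adjusted p 0.00122) and Slc7a8 (-1.10, edgeR adjusted p 0.0017) were lower. Those 3 calls and the one on Slc38a3 were made with and without the run covariate.

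Among members without a proximal role, the smallest p between remission and nephritic mice belonged to Slc38a9, the lysosomal arginine sensor of mTORC1. It had 10.5, 11.4 and 13.7 CPM in remission, below the lowest of the 30 young mice (16.7 CPM), and 18.9 CPM in the median nephritic mouse (log2 change -0.74, SE 0.07, edgeR adjusted p 1.53e-09). Slc38a10 lay at 281 to 335 CPM in remission, above the highest young mouse (280 CPM), and at a median of 202 CPM in nephritic mice (log2 change 0.70, SE 0.08, edgeR adjusted p 1.23e-08). The orphan member Slc38a6 had a log2 change of -0.71 (edgeR adjusted p 6.14e-06) and Slc1a4 of 0.53 (edgeR adjusted p 0.000313). Slc7a6os had -0.44 (edgeR adjusted p 8.28e-06), and with the run covariate -0.16 (edgeR adjusted p 0.205). Slc1a4 had an edgeR adjusted p of 0.129 with that covariate. For Slc38a9 and Slc38a10 the remission mice lay outside the ranges of both other groups, and for Slc38a6 and Slc1a4 they overlapped the young mice. The run effect in the fit rests on the 4 repeat libraries. With the run covariate Slc38a9 (-0.71), Slc38a10 (0.63) and Slc38a6 (-0.82) passed as before, with edgeR adjusted p of 1.77e-06, 3.37e-05 and 7.58e-05.

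Of the 12 ubiquitous supply carriers, 4 were higher and 2 lower in remission than in young mice and 6 did not pass. Slc15a3 had 4.63, 9.76 and 12.9 CPM in remission (log2 change from young 2.43), every mouse above the highest young mouse, and Slc7a11 and Slc7a5 were higher than in young mice by 1.53 and 0.91 on the log2 scale. Slc38a2 fell by 0.68 from nephritic mice (edgeR adjusted p 0.00365) to 85.8 CPM in the median remission mouse. The leukocyte markers were all 13 above young mice, with summed levels of 350.5, 855.2 and 1714 CPM, and 1 of 13 differed from nephritic mice. Of 7 injury markers, 6 were lower than in nephritic mice, and 4 were higher and 0 lower than in young mice. Between ZT0 and ZT12 in remission mice 0.0475% of genes passed and 0 members did in edgeR, with 3 members at an unadjusted p under 0.05 and 0 members in DESeq2. Without the ZT12 mouse that had the clock gene levels of ZT0, 0 members passed as well.

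The last comparison asks which carriers moved with tubular injury among the 27 nephritic mice, taking the log2 level of Lcn2 as the scale and time point and set as covariates. Of all genes, 47.9% had a slope past the threshold (24.3% up and 23.6% down). Of 57 members, 12 had a positive and 17 a negative slope, with 9 proximal members negative and 0 positive, and 7 ubiquitous supply carriers positive and 0 negative. All 14 proximal tubule markers also had a negative slope.

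**Figure D5:**
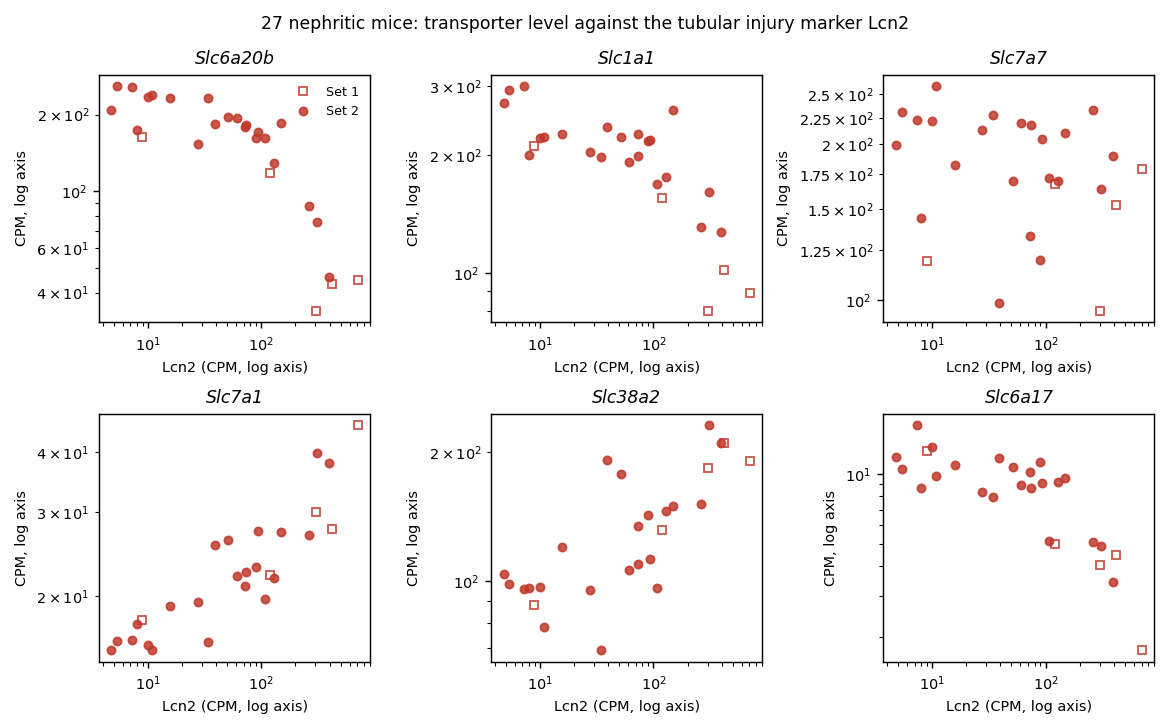
Level in CPM (log axis) of selected members against Lcn2 in CPM (log axis), with open squares for Set 1 and filled circles for Set 2 among the 27 nephritic mice. Slc6a20b and Slc1a1 fall and Slc7a1 and Slc38a2 rise along the axis, and Slc7a7 has a slope of -0.02.

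For a view of the span, the 5 nephritic mice with the least Lcn2 (4.77 to 8.94 CPM) are set beside the 5 with the most (303 to 708 CPM), with no test between these ends. Slc6a20b had 163, 209 and 260 CPM in the lowest, median and highest of the first and 33.8, 45 and 75.7 CPM of the second (slope -0.28 log2 per log2 of Lcn2, edgeR adjusted p 5.48e-06). Slc1a1 had 200, 271 and 300 CPM against 80, 102 and 161 CPM (slope -0.16, edgeR adjusted p 2.14e-06), and Slc6a19 had 143, 181 and 240 CPM against 23.4, 56.2 and 91.9 CPM (slope -0.21). The ends did not overlap for any of the 3. Slc7a7 had 119, 200 and 231 CPM against 95.4, 164 and 190 CPM, which overlapped, and its slope of -0.02 (SE 0.03, edgeR adjusted p 0.626) did not pass.

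By smallest p, the positive slopes were led by Slc7a1, with 15.5, 16.2 and 17.8 CPM at the low end and 27.7, 37.8 and 45.4 CPM at the high end (slope 0.17, edgeR adjusted p 1.05e-07), and by Slc38a2, with 88.2, 96.5 and 104 CPM against 184, 210 and 231 CPM (slope 0.16, edgeR adjusted p 2.17e-06). Neither overlapped between the ends. The scarce Slc7a15 and Slc7a2 had larger slopes of 0.36 (edgeR adjusted p 0.000594) and 0.28 (edgeR adjusted p 2.44e-05). Of the carriers known from the nervous system, Slc6a17 had 8.66, 11.9 and 16.2 CPM against 1.74, 4.04 and 4.88 CPM (slope -0.27, edgeR adjusted p 2.05e-06) and the proline carrier Slc6a7 had a slope of -0.22 (edgeR adjusted p 1.15e-05). The counts of members with a slope were 12 positive and 15 negative in Set 2 alone. They were 13 positive and 17 negative when Havcr1, another tubular injury gene, took the place of Lcn2. Of all genes, 44.5% and 49.9% passed in the same order.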

How the data were processed

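Kidney RNA was sequenced as 69 libraries, 65 original and 4 repeats of mice already in the series. The repeats were left out of the main tests and entered only some alternative fits. The values used are whole-number read counts per gene symbol, as deposited by the authors, with reads of 150 bases. The submitters' processing notes name HISAT and mm10, while the study's methods describe a Burrows-Wheeler aligner with up to 2 mismatches, and the strand setting of the counting is not given in the sources used here. Counts on 15 empty symbols were left out. The labels name no RNA-seq set, so each mouse was assigned to 1 of the study's 2 sets from the style of its title. The sequencing run is not in the labels either and was assumed.

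Genes with at least 100 counts over the libraries of a comparison were normalised by TMM and tested with edgeR 4.0.16 (R 4.3.3, limma 3.58.1). The quasi-likelihood test was used with Benjamini-Hochberg adjustment over all genes, called at 0.05. Set was a covariate in every main fit, and time point where it was not itself tested. The remission fits held young, nephritic and remission mice of ZT0 and ZT12 together. All remission mice were in Set 2 as assigned, so the set term there rests on the young and nephritic mice. The fits were tested on simulated data. Alternatives were DESeq2 1.42.0, relative log expression scaling, other filters, no set term, Set 2 alone, a cosine and marker covariates. Further ones were a run covariate with the repeats added, repeats in place of their originals and each mouse left out. Dropping the libraries with liver or adrenal RNA, the adipocyte covariate, and the fits of single sets for remission and of Set 1 for the level were added after the data were seen.

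The members and all gene lists were chosen with earlier results of these data known. Named were Slc6a19 and Slc7a7, every proximal member, other members that passed with a log2 change of at least 1 between nephritic and young mice, and, by smallest p among those that passed, 6 over time in young mice, 5 for a different time course, 5 between remission and nephritic mice and 5 for the Lcn2 slope. Of each list, the 3 genes with the largest change were named. Further members were named as examples of their role after their values were seen. Nothing in the labels says how far mice were independent in housing or dissection, so p-values measure the spread between these mice. Depth of at least 13311278 counts puts 1 CPM at 13 counts or more.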

Additional observations from a re-analysis of the deposited data

Results flagged for a closer look

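In 4 of 114 groups of 4 to 10 mice, 1 mouse lay farther from the others than Dixon's 95% limit allows, where chance alone flags about 1 in 20 groups. At ZT20, 1 young mouse had 240 CPM of Slc7a7, above the 123, 134 and 135 CPM of the others, in a library with adrenal RNA. At ZT12, 1 young mouse had 223 CPM of Slc3a2. Among nephritic mice, 1 at ZT4 had 0.577 CPM of Slc36a2 and 1 at ZT0 had 5.8 CPM of Slc7a10, and the latter is the nephritic library with adrenal RNA. The mouse with 223 CPM of Slc3a2 was not among the libraries with adrenal RNA.

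The time courses of 3 members differed between young and nephritic mice in edgeR's test of the interaction, with adjusted p of 0.0225 for Slc7a2, 0.0473 for Slc1a2 and 0.0483 for Slc3a2. None of the 3 passed without the 3 young libraries with liver RNA, which left 2 young mice at ZT16. When 1 nephritic mouse at a time was left out, the call was lost in 17 of 27 fits for Slc3a2, in 17 of 27 for Slc1a2 and in 0 of 27 for Slc7a2.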

How the results depend on the processing

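Under the alternatives tried, the counts of members higher and lower in nephritic than in young mice stayed within 1.5 times of 13 and 25. The exception was the proximal tubule marker covariate. With it there were 4 higher and 5 lower members and 1 lower proximal member, and 19.5% of all genes passed. That covariate turned the log2 change of Slc7a4 to -0.14, Slc6a17 to 0.35, Slc6a7 to 0.0573, Slc15a2 to 0.0235, Slc1a1 to 0.11, Slc3a1 to 0.13, Slc6a20b to 0.059 and Slc7a13 to 0.052, and of these only Slc6a17 passed in the new direction (edgeR adjusted p 0.0442). Within Set 1 alone, Slc1a5 had 0.0326. For time of day in young mice, DESeq2 called 13 proximal members and 46.1% of all genes. In nephritic mice the count of members was 15 by DESeq2, 3 with a cosine and 5 with the adipocyte covariate. Of all genes, 33.5%, 2.15% and 18.4% passed in the same order. The proximal count was 4 by DESeq2 and 1 each without the set term, in Set 2 alone, with a cosine and with the adipocyte covariate. Different time courses were called for 9 members by DESeq2, 8 in Set 2 alone, 0 with a cosine, 1 with the repeats and 0 without the liver libraries. Of all genes, 12.5%, 9.89%, 0.691%, 3.96% and 2.51% passed in the same order. The proximal members among these numbered 1 by DESeq2 and 2 in Set 2 alone. Between remission and nephritic mice, the run covariate gave 6 higher and 6 lower members with 3 proximal members higher. Set 2 alone gave 7 higher with 2 proximal, and dropping the adrenal libraries gave 5 higher with 1 proximal. Of all genes, 23.6%, 40.2% and 31.1% passed in the same order. Between remission and young mice, no set term gave 1 proximal member higher. The run covariate gave 4 higher and 8 lower with 3 proximal members lower, and Set 2 alone gave 13 higher with 1 proximal. Of all genes, 41%, 13.8% and 40.5% passed in the same order. Leaving out 1 mouse at a time gave 12 to 15 higher and 22 to 26 lower members between nephritic and young, 34 to 40 over time in young, 5 to 11 over time in nephritic mice (5 without RX7LU) with 1 to 3 proximal, 1 to 5 with a different time course (1 without CRS60) with 0 to 1 proximal, 8 to 12 higher in remission than in nephritic mice (8 without s1), 7 to 9 higher in remission than in young mice, and 10 to 15 positive and 16 to 19 negative slopes. The cause of these differences was not tested, apart from the smaller number of mice where mice were left out. No paired analysis was possible because the numbers in the labels do not tie a mouse of one group to a mouse of another. Members under about 1 CPM, such as Slc7a15, Slc7a11 and Slc15a1, rest on few reads, most of all in the shallower remission libraries.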

Other observations

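The 4 mice sequenced again give a view of the technical spread over the 58 members. The median absolute log2 difference between the original and the repeat library was 0.12 and 0.089 for the young mice and 0.11 for 1 of the nephritic mice. For the other nephritic mouse it was 0.36, with a largest difference of 2.07 in Slc36a2, and its Slc6a19 level was 137 CPM in the original and 178 CPM in the repeat library.

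Slc6a19 and Slc6a18 encode related neutral amino acid carriers of the brush border, and the ratio of their CPM had a median of 0.17 in young (0.0611 to 0.507), 0.0994 in nephritic (0.0261 to 0.316) and 0.0634 in remission mice (0.0378 to 0.104). In young mice their daily courses ran opposite to each other, with Slc6a19 highest and Slc6a18 lowest at ZT8. The glutamine exchanger Slc1a5 had a median of 18.8% of the CPM of Slc6a19 in young, 33.2% in nephritic and 56.8% in remission mice. Young and nephritic mice entered these ratios at all 6 time points and remission mice only at ZT0 and ZT12, so the groups are not matched in time. At ZT0 and ZT12 the median nephritic and remission levels were 94.3 and 106 CPM for Slc6a19. They were 1340 and 1590 CPM for Slc6a18, and 47.5 and 52.8 CPM for Slc1a5. These ratios were examined after the values were seen and were not tested.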
